A study of Mus musculus with 20 samples.

Results

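The miRNAs described here are the families miR-297, miR-466, miR-467 and miR-669, most of which come from a cluster of hairpins in an intron of the mouse gene Sfmbt2. They were chosen by name: every row of the count table whose precursor begins with mir-297, mir-466, mir-467 or mir-669, with 1 row per mature name. This gave 309 of 2241 rows, 82 precursors and 80 of 1915 mature names. Of the 80 names, 64 had a read in at least 1 of 20 libraries, and after names with the same count in every library were counted once there were 48 separate counts. The 16 names with no read are below what 3 reads over all libraries would show.

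Small RNA was sequenced from the serum of female mice, with 5 libraries in each of 4 groups. The young normal and young dwarf groups were 5 to 6 months old, and the old normal and old dwarf groups were 21 to 22 months old. All groups carry the Ames dwarf stock label with its mixed genetic background. Ames dwarf mice are long-lived, and the series surveys serum miRNAs by age and genotype. Whether each of a group's 5 libraries is from a mouse of its own is not stated in the labels; p-values therefore measure only the spread between libraries, which may be technical.

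The cluster is known from rodents. Its hairpins lie in tandem repeats within Sfmbt2, a Polycomb-type gene expressed from the paternal copy in the placenta, and they are processed from the intron of its transcript. A mature miRNA pairs with target mRNAs mainly through its seed, bases 2 to 8 from its 5′ end, and repeat copies of a hairpin can give the same mature sequence.

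Of the 82 precursors, 71 lay inside Sfmbt2 on chromosome 2 (gene 10370510 to 10595253, plus strand, GRCm38), 10 lay elsewhere and 1, mir-466a, was not matched to the RefSeq gene table. The 71 hairpins ran from 10466663 to 10518279, a span of 51.6 kb within a single intron, which is intron 10 or intron 11 depending on the transcript (GENCODE M21). One more annotated miRNA gene inside Sfmbt2 was Mir466, with the synonym mmu-mir-466, at 10507918 to 10507990. Whether Mir466 is the unmatched mir-466a was not tested, so mir-466a is left without a location here. By source, 36 of the 48 separate counts were listed for Sfmbt2 hairpins only, 5 for hairpins elsewhere only and 1 for mir-466a only. Another 3 were listed for Sfmbt2 and the unmatched mir-466a (miR-466a-3p, miR-466b-3p and miR-466p-5p). The last 3 joined Sfmbt2 and a hairpin elsewhere (miR-297a-5p, miR-466f, and miR-467g counted with miR-669p-3p). miR-467g and miR-669p-3p had no hairpin in common and were joined because each had 1 read, in the same library. Of the 14 sets of names counted once, 4 had under 10 reads, where equal counts need not be the same reads. miR-669a-5p was listed for 14 hairpins and miR-669a-3p for 12, all of them inside Sfmbt2, so their reads cannot be assigned to 1 hairpin.

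**Figure D1:**
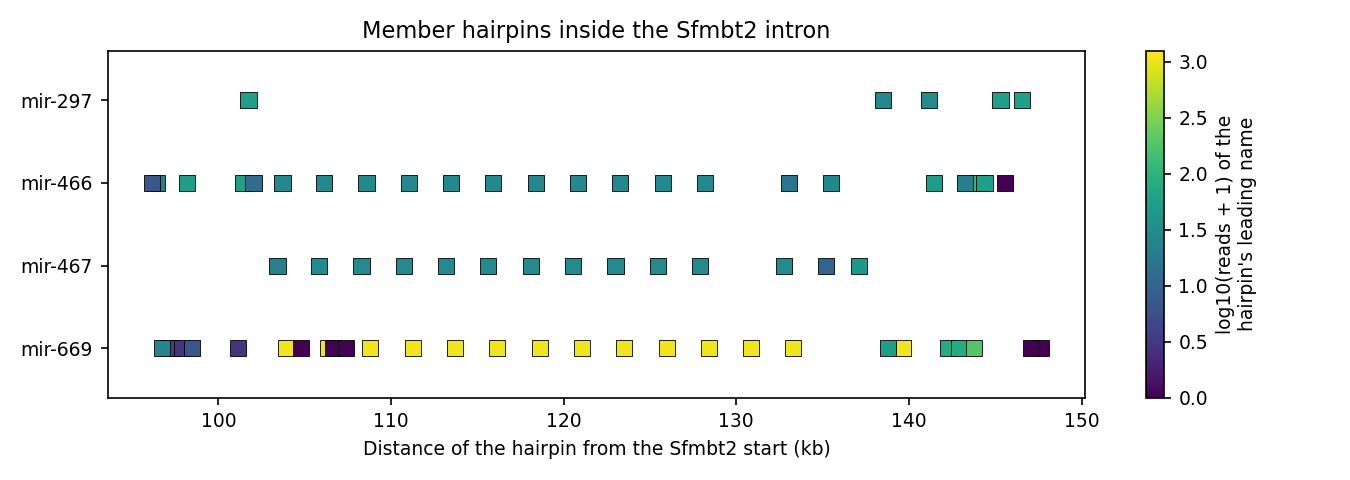
Position of the 71 member hairpins inside Sfmbt2, by family; the x axis is the distance in kb from the start of Sfmbt2, and the colour is log10 of 1 plus the reads of the hairpin's leading mature name over 20 libraries. A read matching several hairpins colours each of them, so the row of mir-669 hairpins in the brightest colour shows the same 1078 reads of miR-669a-5p.

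The mature sequences of 8 members were in the RefSeq miRNA table (GRCm38), all from hairpins outside Sfmbt2. The other 72 names, both tested arms among them, had no sequence there, so whether they carry the repeat below was not seen. Those of the 8 with reads are shown for the short repeat they carry, with the seed in capitals.
miR-466i-3p: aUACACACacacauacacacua
miR-466k: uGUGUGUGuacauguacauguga
miR-466q: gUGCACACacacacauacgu
miR-669n: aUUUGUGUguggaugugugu
miR-467g: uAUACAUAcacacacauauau
All 8 held UGUGUG or ACACAC, searched on the strand of the mature miRNA, 4 with each, against 31 of 1671 other mature names in the table (1.86%). Among the 8, no seed was shared. One, miR-467h, had the seed of a miRNA outside the families, miR-668-5p, and neither had a read.

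Libraries held 1343137 to 4710263 miRNA counts with 1 row per name. The families were a small part of serum miRNA. Their summed level ran from 13.6 to 104.0 CPM, the count scaled to library size with edgeR's TMM factors, and 37.5 to 58.8% of that sum was miR-669a-5p. That miRNA ranked 202nd by total of 1191 names with a read. Some separate counts were nearly the same, such as miR-466a-3p (28 reads) and miR-466b-3p (27 reads), taken from the same hairpin. Sharing of single reads was not tested, so the sum need not be a number of separate reads. The 4 red-cell, 5 lymphocyte, 4 myeloid and platelet and 4 hepatocyte marker miRNAs all had reads in serum.

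Only 3 members had at least 100 reads over the 20 libraries, 22 had 10 to 99 and 23 had under 10. Of the 80 names, 6 belonged to miR-297, 31 to miR-466, 13 to miR-467 and 30 to miR-669, and the highest totals in these families were 59, 120, 43 and 1078 reads. After edgeR's filter on low counts, 360 names were tested, and among them were 2 separate counts of the families, miR-669a-5p (1078 reads, the same reads as miR-669p-5p) and miR-669a-3p (181 reads, shared with miR-669o-3p). They are the 2 arms of the miR-669a hairpins. In published work miR-669a has been described as a repressor of MyoD.

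miR-669a-5p was highest in old normal serum. It stood at 26.7, 51.9, 48.5, 41.4 and 51.5 CPM in old normal replicates 1 to 5, and at 29.1, 17.6, 12.3, 38.3 and 13.0 CPM in young normal replicates 1 to 5. The young dwarf libraries held 22.3, 10.6, 15.5, 9.19 and 9.74 CPM, and the old dwarf libraries 10.8, 21.9, 11.3, 5.46 and 11.9 CPM. Every old normal library lay above every old dwarf library, while young normal replicates 1 and 4 reached into the old normal range. Each value rests on 8 to 150 reads.

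**Figure D2:**
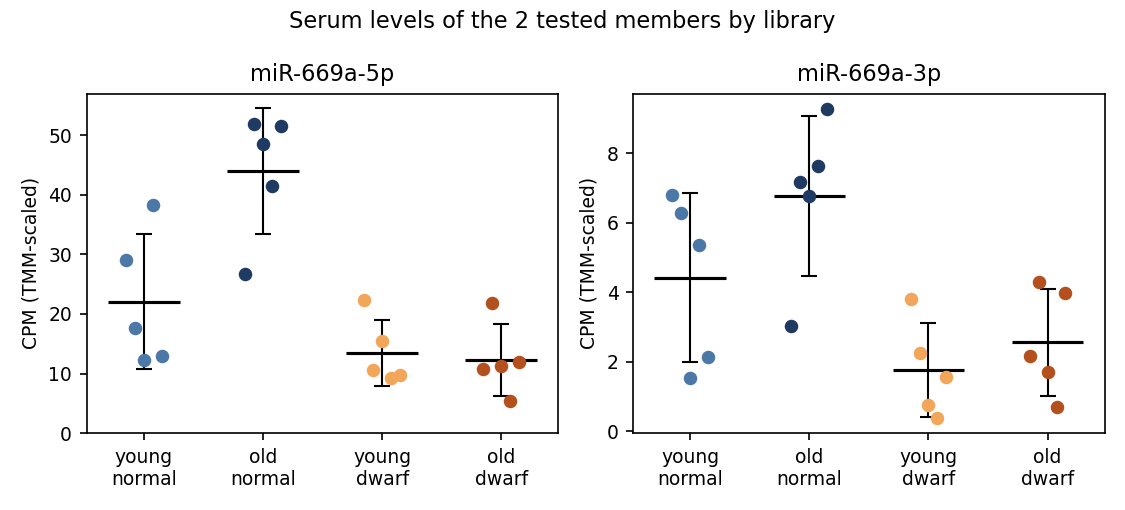
CPM of miR-669a-5p and miR-669a-3p in each library (points) of the 4 groups, with the group mean (line) and SD (bar), n = 5. For miR-669a-5p the old normal libraries lie at 26.7 to 51.9 and the old dwarf libraries at 5.46 to 21.9; the groups of miR-669a-3p overlap.

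miR-669a-3p was much lower in level and followed a like order. Its values were 6.79, 6.28, 1.54, 5.35 and 2.12 CPM in young normal libraries and 3.02, 7.16, 6.76, 7.63 and 9.27 CPM in old normal libraries. Young dwarf libraries held 3.79, 2.25, 0.739, 0.383 and 1.56 CPM and old dwarf libraries 2.15, 4.3, 1.69, 0.682 and 3.98 CPM. All pairs of groups overlapped for this arm, and old normal replicate 1 was the lowest old normal library for both arms.

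Old dwarf against old normal serum asks how genotype bears on these miRNAs in aged mice. miR-669a-5p fell, from 44.0 ± 10.6 CPM in old normal to 12.3 ± 5.95 CPM in old dwarf serum (SD, n = 5 each). The log2 fold change was -1.82 ± 0.39 (SE), a level 3.53-fold lower (edgeR quasi-likelihood, adjusted p = 0.00381). miR-669a-3p stood at 6.77 ± 2.3 and 2.56 ± 1.54 CPM, with log2 -1.33 ± 0.54 (adjusted p = 0.0677), and did not pass. One of 2 tested members was thus called, where 26.4% of all 360 names were called and 10.3% were called lower, and non-overlap with the dwarf group lower was seen in 4.72% of names. The miR-669a-5p call held with every library left out in turn (adjusted p from 0.00119 to 0.0169), and miR-669a-3p passed when old dwarf replicate 2 was left out (log2 -1.61, adjusted p = 0.0418).

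The ratio used as a haemolysis index and the lymphocyte markers also differed between the same groups, while the red-cell markers did not pass the test. An index of haemolysis compares miR-451a, abundant in red cells, with miR-23a-3p, which haemolysis changes little, as a log2 ratio. Such a ratio can move through either miRNA, and which of them moved it here was not tested. The index was 4.3 ± 0.7 in old normal and 5.38 ± 0.44 in old dwarf serum, a difference of 1.08 (exact permutation p = 0.00794, adjusted p = 0.0317, two-sided; 0.0635 without old normal replicate 2 or 4). With the index as a covariate, 0 of 360 names and 0 members were called in this comparison, and miR-669a-5p was at log2 -1.35 (edgeR adjusted p = 0.093) and miR-669a-3p at log2 -0.45 (adjusted p = 0.717). All 5 lymphocyte markers were lower in old dwarf than in old normal serum (edgeR, adjusted p under 0.05), with a summed level of 764 to 1540 against 1714 to 6579 CPM, and none at 0. Of the myeloid and platelet markers 1 of 4 was lower, and 0 red-cell and 0 hepatocyte markers of 4 each were called. The red-cell markers summed to 390267 to 581722 CPM in old normal and 304746 to 569666 CPM in old dwarf libraries. The part of these signals in the miRNA result was not tested, and in serum fewer cells of a type and less RNA per cell cannot be told apart.

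Old against young normal serum asks how these miRNAs change with age in normal mice. miR-669a-5p was at 44.0 ± 10.6 CPM in old and 22.1 ± 11.3 CPM in young normal serum (SD, n = 5), log2 0.99 ± 0.37 (edgeR adjusted p = 0.0687), and 4 of 5 old libraries lay above every young library. miR-669a-3p was at log2 0.63 ± 0.51 (adjusted p = 0.347). Neither passed, where 15.6% of names were called. The call for miR-669a-5p changed with the setting: it passed with DESeq2 (adjusted p = 0.0296), with upper-quartile scaling (0.0386), without young normal replicate 1 (0.0481) and without young normal replicate 4 (0.0221). It was at log2 0.44 with the haemolysis covariate (edgeR adjusted p = 0.692) and at log2 0.62 with library totals in place of TMM factors (adjusted p = 0.136). With the covariate miR-669a-3p was at log2 -0.33 (adjusted p = 0.852). Here too the index moved, by -1.15 from young to old normal (exact permutation p = 0.0238, adjusted p = 0.0476, two-sided). Its adjusted p rose to between 0.0635 and 0.0952 when young normal replicate 2, 3, 4 or 5 or old normal replicate 2, 4 or 5 was left out. All 5 lymphocyte markers were higher in old than in young normal serum, where they summed to 700 to 1970 CPM. Of the 4 red-cell markers 1 was lower, of the 4 myeloid and platelet markers 1 was higher, and 0 of 4 hepatocyte markers were called. Their part in the miRNA values was not tested. This comparison and the one above share the old normal libraries.

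In young mice neither member was called between genotypes. miR-669a-5p was at 13.5 ± 5.54 CPM in young dwarf against 22.1 ± 11.3 CPM in young normal serum, log2 -0.72 ± 0.38 (edgeR adjusted p = 0.618). miR-669a-3p was at 1.74 ± 1.36 against 4.42 ± 2.43 CPM, log2 -1.32 ± 0.55 (adjusted p = 0.446). Of all names 0.0% were called by edgeR in this comparison. An unadjusted p under 0.05 was found for 28 names (7.78%), miR-669a-3p among them, and DESeq2 called 6 names, with 0 members.

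Old against young dwarf serum gave no member call either. miR-669a-5p differed by log2 -0.11 ± 0.38 and miR-669a-3p by log2 0.62 ± 0.58 (edgeR adjusted p = 0.997 for both), where 0.556% of names were called. The sign for miR-669a-5p turned without young dwarf replicate 1 (log2 0.14) and without old dwarf replicate 4 (log2 0.09). The age effects of the genotypes differed by log2 -1.11 ± 0.54 for miR-669a-5p (adjusted p = 0.305) and by -0.01 for miR-669a-3p (adjusted p = 1.0), so the difference in age effect was not called for either arm; 0.556% of names were called. The sign for miR-669a-3p was kept in 2 of 9 settings run on all libraries, and that for miR-669a-5p in 9 of 9.

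**Figure D3:**
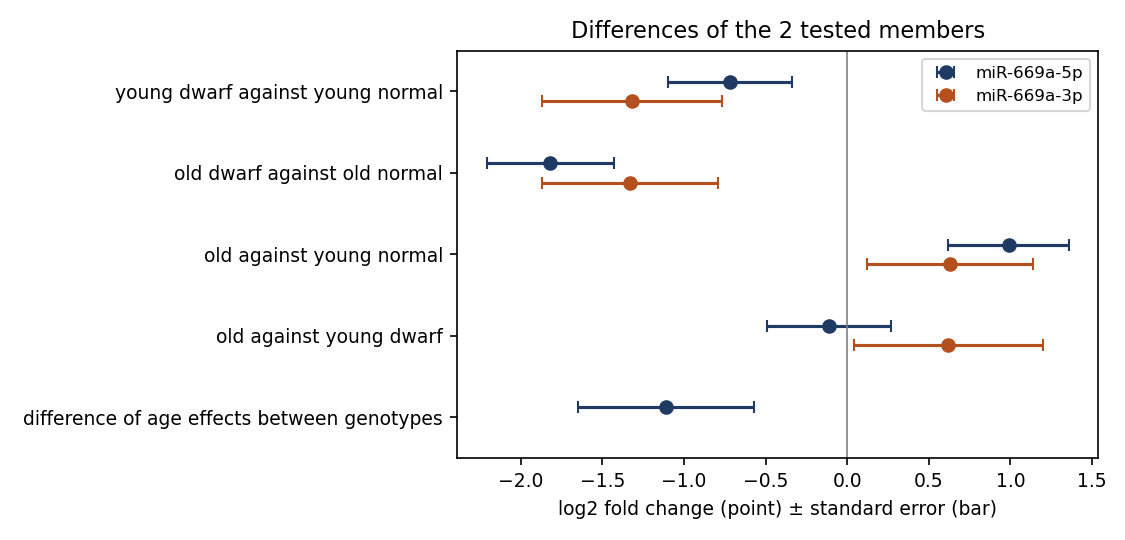
Log2 fold change (point) with SE (bar) of miR-669a-5p and miR-669a-3p in each comparison from the edgeR fit on 20 libraries. Old dwarf against old normal has the point farthest below 0 for miR-669a-5p, at -1.82; the difference of age effects of miR-669a-3p, -0.01, has no SE and is not drawn.

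The ratio of 5p to 3p reads of miR-669a over pooled libraries was 5.34 (young normal), 6.38 (old normal), 7.77 (young dwarf) and 4.75 (old dwarf). Single libraries ran from 2.8 to 24.0, the top value being a library with 1 read of the 3p arm. The 5p arm was thus the more abundant in every library.

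The other members were too low for the test across all names, and the filter that removed them passes a name through the group where it is high. The 6 with most reads were miR-466g (120), miR-466i-5p (83), miR-669b-5p (79), miR-297a-5p (59), miR-466h-3p (54) and miR-466f-3p (53). With no filter, none of the 6 was called in any comparison, where 0.084% (young dwarf against young normal), 7.98% (old dwarf against old normal), 5.96% (old against young normal), 0.168% (old against young dwarf) and 1.09% (difference of age effects) of 1191 names were; the smallest adjusted p was 0.0734 for miR-466f-3p in old dwarf against old normal serum (edgeR, log2 -2.56 ± 0.91). In that comparison 10 of the 48 members had an unadjusted p under 0.05, all lower, where 20.9% of all names did. The count is near that share, which takes both directions. The share of all names that were lower at that threshold was not computed, so no excess or lack is read from the count.

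miR-669b-5p was at 1.51, 4.48, 2.78, 5.99 and 5.15 CPM in old normal and 0.538, 2.15, 0.0, 2.05 and 0.497 CPM in old dwarf libraries. It stood at 2.43, 0.0, 1.54, 1.69 and 1.06 CPM in young normal and at 0.949, 0.0, 1.48, 0.383 and 0.39 CPM in young dwarf libraries. Old normal was thus the group with most, and 3 of 5 old dwarf libraries lay under every old normal library.

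miR-466g was at 0.503, 8.96, 7.15, 3.81 and 3.43 CPM in old normal and 3.23, 3.23, 2.25, 2.05 and 1.49 CPM in old dwarf libraries. In young mice it was at 3.4, 0.837, 1.85, 4.5 and 0.353 CPM in normal and 0.949, 1.6, 2.22, 0.383 and 1.17 CPM in dwarf libraries. Its groups all overlapped, and old normal replicate 1 held 1 read.

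miR-297a-5p ran from 1.01 to 3.09 CPM in old normal and from 0.497 to 1.13 CPM in old dwarf libraries. miR-466h-3p was found in 5 of 5 old normal libraries, at 1.59 to 3.02 CPM, and in 1 of 5 old dwarf libraries, replicate 2, at 1.79 CPM. miR-466f-3p ran from 0.503 to 3.43 CPM in old normal and from 0.0 to 0.717 CPM in old dwarf libraries, where 2 of 5 had a read. These members were lower in old dwarf than in old normal serum in their means, but none of the differences passed the test.

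miR-466i-5p went another way, and its hairpins lie outside Sfmbt2, on chromosomes 3 and 13. It was found in all 5 young dwarf libraries, at 2.37, 6.42, 5.54, 1.91 and 1.95 CPM. In young normal serum it was found in replicates 3 and 4 at 1.23 and 1.41 CPM, in old normal in replicates 3 and 4 at 5.96 and 0.545 CPM, and in old dwarf in replicate 2 at 2.87 CPM. Young dwarf libraries thus lay above every young normal library, as was seen for 0.833% of the 360 tested names. Those names passed the low-count filter and miR-466i-5p did not, so the share is not one for names with so few reads. Without the filter the difference was log2 2.52 ± 0.89 (edgeR adjusted p = 0.512), so it was not called.

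**Figure D4:**
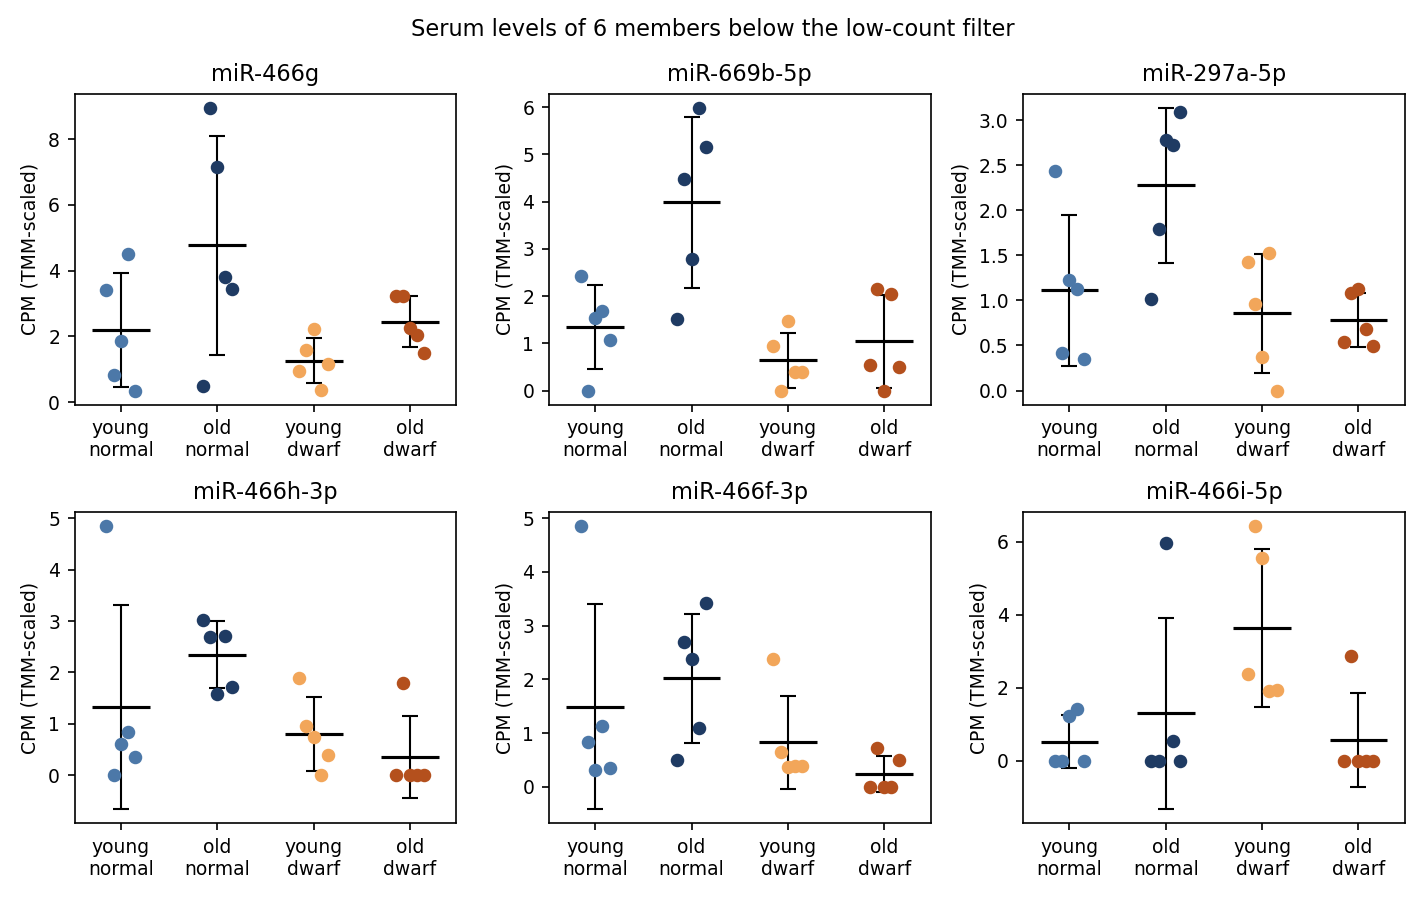
CPM in each library (points) of the 6 members with most reads that were not tested, with group mean (line) and SD (bar), n = 5; the bar can reach below 0 because the counts are few. miR-466i-5p is high in young dwarf libraries (1.91 to 6.42 CPM), and the other 5 have their highest mean in old normal libraries.

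The direction over all members with at least 10 reads was read from pooled CPM, the reads of a group's libraries together over their TMM-scaled sizes together. A group with 0 reads was set to 3 reads. Among the members this touched miR-466b-5p, with 0 reads in both dwarf groups, which thereby counts as higher in old than in young dwarf libraries. Of the 25 members with at least 10 reads, 25 were lower in old dwarf than in old normal libraries (median log2 -1.2). This was so for 55.5% of 701 names with 10 reads (median -0.14). The count of members was 23 to 25 when each library was left out in turn. In normal mice 24 were higher in old than in young libraries (median 0.97), where 56.5% of the 701 names were higher and 43.5% lower (median 0.18). The exception was miR-467c-5p, at a pooled CPM of 0.579 in old and 0.639 in young normal libraries; leaving 1 library out gave 0 to 4 lower members. The range in the first comparison ran from miR-669f-3p (log2 -0.52) to miR-466f-3p (log2 -2.81). Old normal was the highest group for 23 of 25 members, against 43.4% of all names, with miR-467c-5p highest in young normal and miR-466i-5p in young dwarf libraries.

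In young mice 20 of 25 were lower in dwarf libraries (median log2 -0.78), against 52.6% of names; the 5 higher were miR-297a-3p, miR-297b-5p, miR-466a-3p, miR-466i-5p and miR-669f-3p. The count was 15 without young normal replicate 1, 24 without young normal replicate 3 and 17 with library totals. Old dwarf libraries were lower than young dwarf libraries for 9 of 25, against 47.1% of names. That last count was 17 without old dwarf replicate 2 and 16 with library totals in place of TMM factors, so no direction is read from it. Old dwarf replicate 2 was the highest old dwarf library for 17 of 25 members, and young normal replicate 1 the highest young normal library for 16. Some of the 25 counts were nearly the same: miR-466a-3p and miR-466b-3p were both taken from hairpin mir-466b-1, with 28 and 27 reads. Their pooled reads differed only in young dwarf libraries, at 8 and 7, yet each is counted as a member here. Whether other members share single reads was not tested. The counts are not taken as independent, and no test was made over them.

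**Figure D5:**
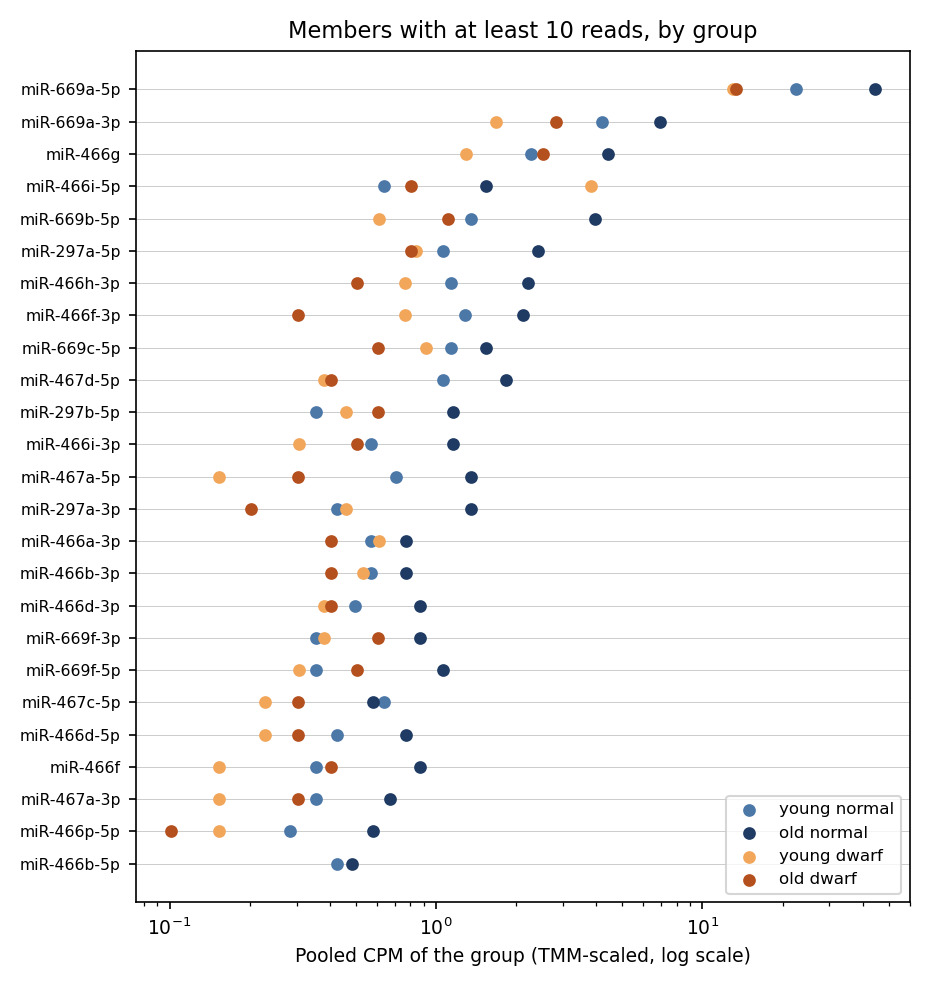
Pooled CPM (TMM-scaled, log axis) of the 25 members with at least 10 reads in the 4 groups; a group with 0 reads has no point. Old normal (darkest blue) lies farthest right for 23 of the 25.

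Among the others, miR-669c-5p, a miRNA reported to be higher in the liver of old mice, had 50 reads and a pooled CPM of 1.54 in old normal, 1.14 in young normal, 0.915 (young dwarf) and 0.606 (old dwarf) libraries. miR-467d-5p had 43 reads and pooled CPM of 1.83, 1.06, 0.381 and 0.404 in that order. miR-466b-5p had 6 reads in young normal and 5 in old normal libraries, and 0 in both dwarf groups, which allows a pooled CPM of up to 0.229 in young and 0.303 in old dwarf libraries (3 reads over the group, counting error only).

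By median, the number of members found was highest in old normal serum. Each library was thinned in 1 random draw to 1343137 miRNA counts, the smallest library total. A median of 23 of 48 member counts was then found in old normal libraries (15 to 24) and 14 (11 to 22) in young normal. It was 15 (13 to 20) in young dwarf and 10 (5 to 20) in old dwarf libraries. Without thinning the medians were 29, 20, 19 and 13. Names with the same count each enter the library total, so equal totals need not be equal numbers of reads. No like number over all names is given, so the order is not read as particular to the families. By pooled CPM, old normal was the highest group for 43.4% of 701 names. The summed level of the families without miR-669a-5p ran from 19.1 to 51.9 CPM in old normal, 10.2 to 47.6 CPM in young normal, 9.96 to 28.0 CPM in young dwarf and 7.89 to 29.4 CPM in old dwarf libraries. Old normal replicate 1 was the lowest of its group, so the ranges of old normal and old dwarf libraries overlap.

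The authors' deposited miRDeep2 report, which scores hairpins on the reads of all libraries together, listed 10 hairpins under 6 member names. Of these, 7 lay on a member precursor, all in Sfmbt2, and the highest score, 31.4, was for miR-467d-5p with 43 mature and 17 star reads. The other 3 carried the name miR-466i-5p and lay on no member precursor, on chromosomes 4, 9 and 1, with scores of 2.8, 0.1 and -7.6 and 20, 42 and 379 reads. The report gives no values per library.

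Among tested names outside the families, those with the levels most like miR-669a-5p over the 20 libraries were miR-27a-3p (Pearson r = 0.9), miR-222-3p (0.86), miR-326-3p (0.86), miR-151-3p (0.86) and miR-191-5p (0.84), and miR-669a-3p had 0.85. With group means removed the 5 were at 0.84, 0.77, 0.76, 0.75 and 0.73. The lowest were miR-136-5p (-0.89), miR-540-3p (-0.86) and miR-410-3p (-0.86), all 3 encoded in the imprinted Dlk1-Dio3 locus. The points share library, depth and scaling, and are a description of log2 CPM.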

How the data were processed

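Serum small RNA of 20 samples was analysed. Bowtie 0.12.8, bedtools, edgeR and GRCm38 (mm10) are named in the submitters' processing notes with no stated role. The deposited counts are raw reads per pair of mature miRNA and precursor, per the file headers. The deposited RPM values, the authors' scaling of counts by column sum, were not used; 0 sample columns were left unused. Per the file headers, the second file holds the authors' miRDeep2 score and pooled reads. The row with the highest total was used for each name.

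Counts were tested with edgeR 4.0.16 (limma 3.58.1, R 4.3.3; DESeq2 1.42.0 as an alternative): TMM factors, the default low-count filter by group (minimum count 10), a coefficient per group, and Benjamini-Hochberg adjustment over 360 names, called under 0.05. The common biological coefficient of variation was 47.5%. The haemolysis index used counts plus 1 and exact permutation tests (SciPy 1.17.1), adjusted over 4 comparisons. Likeness used log2 CPM with a prior count of 2. The fit was tested on simulated data. Named were the tested members, the 6 untested ones with most reads, 2 haemolysis miRNAs, and the 5 most and 3 least alike names; others were chosen after their values were seen. The members and lists were chosen with earlier results of these data known. Mature sequences are from RefSeq.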

Additional observations from a re-analysis of the deposited data

Results flagged for a closer look

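In 6 of 36 groups of 5 libraries checked, 1 library stood apart from the others by Dixon's criterion. Chance meets it in about 1 of 20 groups for normally distributed values, which counts near 0 are not. In old dwarf serum only 1 of 5 libraries had a read of miR-466i-5p, and likewise for miR-466h-3p. Such a library stands apart whatever its value, so no excess over chance is read from the 6 groups. miR-466i-5p was at 5.96 CPM in old normal replicate 3 and at 2.87 CPM in old dwarf replicate 2. miR-466h-3p was at 4.85 CPM in young normal replicate 1 and at 1.79 CPM in old dwarf replicate 2. miR-466f-3p was at 4.85 CPM in young normal replicate 1 and at 2.37 CPM in young dwarf replicate 1. All 6 values belong to members with under 100 reads in all.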

How the results depend on the processing

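The lower miR-669a-5p of old dwarf against old normal serum kept its direction in all 9 settings and 20 leave-one-out fits (log2 -2.14 to -1.35) and lost its call under the haemolysis covariate only. Causes of the changes below were not tested. Depth limits the rest: 2 of 48 counts passed the filter. Library totals in place of TMM move the median of all names by age, to log2 -0.42 in normal and -0.38 in dwarf mice; relative to that shift the members lie higher with age than their values there show.

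With the haemolysis covariate, the names called were 1 (young dwarf against young normal), 0 (old dwarf against old normal, with 0 members), 1 (old against young normal) and 0 (difference of age effects), and miR-669a-3p turned to log2 -0.33 in old against young normal serum. DESeq2 called 6 names between young groups, 117 with age in normal mice (1 member) and 20 for the difference of age effects; library totals called 106, 0 and 0 for age in normal mice, age in dwarf mice and that difference. Upper-quartile factors gave 1 member call with age in normal mice and 0 names for the difference. With no filter 1 name was called between young groups and 13 for the difference; DESeq2 size factors gave 1 and summed precursor rows 0 for the difference, and summed rows 1 for age in dwarf mice. The difference of age effects for miR-669a-3p turned to 0.09 (DESeq2 size factors), 0.03 (library totals), 0.1 (DESeq2), 0.06 (no filter), 0.0 (summed rows), 0.08 (identical names once) and 0.94 (haemolysis covariate). Without thinning, medians of 20, 29 and 19 members were found in young normal, old normal and young dwarf libraries. With library totals, the lower pooled members were 2 (age, normal) and 16 (age, dwarf).

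With 1 library left out, old dwarf against old normal gave 51 to 143 names and 1 to 2 members called, and age in normal mice 29 to 123 names and 0 to 1 members. Age in dwarf mice gave 0 to 2 names and log2 -0.44 to 0.14 for miR-669a-5p; the difference of age effects gave 0 to 3 names and -0.28 to 0.44 for miR-669a-3p. Lower pooled members ran from 0 to 4 (age, normal) and 6 to 17 (age, dwarf). The haemolysis difference, an alternative chosen after seeing the data as were those on pooled members, ran from 0.78 to 1.21 (old genotypes), -1.35 to -0.85 (age, normal), -0.25 to 0.16 (young genotypes) and -0.19 to 0.14 (age, dwarf).

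With the replicate number as a block, old dwarf against old normal gave 92 names and 1 member called, and age in dwarf mice and the difference of age effects 0 names each. Same-numbered libraries correlated from -0.68 to 0.81 and 3 of 20 matched best with their own number. No pairing by number was thus evident, but such correlations cannot exclude one, and the labels state none.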
